A study of Oryctolagus cuniculus with 54 samples.

Results

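The saccular and the early alveolar phase of rabbit lung development were compared within sequencing run 1, in 12 of the 54 libraries of the series. The members were taken by their labels: the run 1 libraries of F28 and F29 formed the saccular group (6 animals) and those of T31 and T35 the alveolar group (6 animals), with 3 animals at each time point. All animals were New Zealand White rabbits. RNA came from the homogenised right lung, or from whole lungs in the F20 and F23 fetuses that are set beside them below. F28 and F29 fetuses were delivered by C-section on day 28 or 29 of gestation and their lungs taken at once. T31 pups were born naturally at term on day 31 and sampled right after birth, whereas T35 pups were born in the same way and stayed with their mothers in room air for 4 days. According to the study's methods each animal of a time point came from a different dam, so that within a time point a library stands for an animal and a litter. Whether T31 and T35 pups shared dams is not stated. T31 and T35 differ from the saccular animals in age, in the route of delivery and in the drugs given to the dam before C-section. They also differ in air breathing and, at T35, in feeding, and all of these cannot be told apart.

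In the saccular phase the distal airways end in thin-walled sacs, the epithelium flattens into type I cells and differentiates into surfactant-producing type II cells, and capillaries come close to the air spaces. In the alveolar phase ridges rich in elastin grow from the walls of the sacs and divide them into alveoli. In the rabbit, as in humans, this phase starts shortly before term, so that birth and the start of breathing fall within it. Messenger RNA was read from its 3′ end with a QuantSeq FWD kit, and the deposited values are read counts per Ensembl gene. The count table lists identifiers only and the RefSeq gene table used here pairs 0 of them with a symbol, so genes are described below by their behaviour, and the tissue could not be checked against marker genes. In a whole-lung homogenate, fewer cells of a type and less RNA per cell cannot be told apart.

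Total counts were 5862298 to 6610616 in the saccular libraries (median 6373205.5) and 6514089 to 7381691 in the alveolar ones (median 6980252.5), and 15650 to 15915 against 15899 to 16070 genes were detected with at least 1 count. Both values were higher in the alveolar libraries (two-sided exact permutation tests of the 12 animals, adjusted over 4 library values, p = 0.039 for totals and p = 0.0173 for genes detected). The share of counts in the 10 most abundant genes did not pass the test, with 9.48% to 12.9% in the saccular and 8.46% to 14.9% in the alveolar libraries (exact permutation test, adjusted p = 0.366). When all libraries were thinned at random to 5862298 counts, a step added after seeing the data, the number of genes called below went from 405 to 393. No library was a copy of another, and the highest correlation of log2 CPM between them was 0.975.

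More genes rose than fell from the saccular to the alveolar phase. Of 14062 genes tested, 405 (2.88%) were differentially expressed, with 285 (2.03%) higher and 120 (0.853%) lower in the alveolar animals. To be called, a gene had to change by more than 2-fold with an adjusted p no higher than 0.05, and to be tested it had to reach a CPM (its counts scaled to a common library total) of 0.5 in at least 3 of the 12 libraries. The median log2 fold change was 1.57 among the higher genes (quartiles 1.21 and 2.13) and -1.39 among the lower ones (quartiles -1.67 and -1.18), beside 0.0037 over all genes tested. The balance between rises and falls moved with the scaling, and with library size in place of TMM factors 233 genes were higher and 159 lower. It also moved with the animals, with 68 higher and 68 lower genes without F29 and 63 higher and 84 lower without T35. The count went from 405 to 265 without T35 animal 6 and to 269 without F28 animal 7.

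The genes that rose together held a small part of the lung's messenger RNA, and that part grew. In the 6 saccular lungs the 285 higher genes summed to between 5830.4 and 6926.9 CPM. They reached 10387.6 CPM in T31 animal 15, 14331.3 in T31 animal 1 and 16936.3 in T31 animal 10, and 17244.3 to 21049.9 CPM at T35. The 120 lower genes went from 3113.3 to 4249.3 CPM in the saccular lungs to 1588.9 to 2386.7 CPM at T31 and 1255.4 to 1374.6 CPM at T35. These sums describe genes chosen for this difference, and no test is attached to them. T31 animal 15 lay nearest to the saccular lungs in each sum.

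The genes called had lower levels than the genes tested as a whole. A mean of 100 CPM or more was found for 23 of the higher genes (8.07%) and 7 of the lower genes (5.83%), against 15.2% of all genes tested. Means between 10 and 100 CPM were found for 96 higher (33.7%) and 30 lower genes (25.0%), against 40.5% of all. The median was 6.1 CPM for the higher and 3.24 CPM for the lower genes, against 14.3 CPM over all genes tested. At these depths 1 count corresponded to between 0.139 and 0.160 CPM, so a gene at 1 CPM rests on few reads. Among the 285 higher genes 56 reached the filter in fewer than 3 saccular libraries, and among the 120 lower genes 16 in fewer than 3 alveolar libraries, so these were tested through the phase in which they were high. Of all 14062 genes tested, 1026 reached it in fewer than 3 saccular and 895 in fewer than 3 alveolar libraries. The 56 and 16 genes remain in the counts and medians given here. Changes beyond 2 on the log2 scale were found for 83 higher and 19 lower genes.

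The 6 animals of a phase did not overlap with the other 6 in 93 of the 285 higher genes (32.6%) and in 63 of the 120 lower genes (52.5%). Over all genes tested, the alveolar animals lay wholly above the saccular ones in 2.44% and wholly below them in 2.26%, in all 661 genes (4.70%). The called genes were selected on this same contrast, so the excess is part of their definition. Individual pups differed in how many of the genes had moved past every saccular animal. At T35 this held for 264, 277 and 272 of the 285 higher genes in animals 1, 6 and 11. At T31 it held for 198, 259 and 190 of them in animals 1, 10 and 15. A single pup passes every fetus in many genes, and over all 14062 genes tested this held for 3458, 3507 and 3645 genes at T35 and for 3636, 3193 and 2730 at T31. Of the 120 lower genes, 109, 111 and 105 lay below every fetus in the T35 animals and 106, 103 and 86 in the T31 animals. Over all genes tested the numbers below every fetus were 3399, 3520 and 3707 at T35 and 3714, 3152 and 2659 at T31. T31 animal 15 had the smallest number in both sets and over all genes in both directions.

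The 4 genes given in full are the pair with the largest rise and the pair with the largest fall among called genes of at least 5 CPM whose phases did not overlap. This choice favours large run 1 changes and fixes the separation of the phases in run 1. ENSOCUG00000006029 stood at 1.58, 0.479 and 1.04 CPM in F28 animals 2, 7 and 9 and at 1.42, 1.40 and 1.66 CPM in F29 animals 2, 7 and 11. It was at 29.0, 20.4 and 12.5 CPM in T31 animals 1, 10 and 15 and at 2.78, 9.27 and 5.74 CPM in T35 animals 1, 6 and 11. Every T31 pup thus exceeded every T35 pup, and every T35 pup exceeded every fetus. The phase means were 1.26 ± 0.438 and 13.3 ± 9.81 CPM (SD, n = 6 each), and the rise was 3.37 ± 0.527 on the log2 scale (SE, adjusted p = 0.00381, edgeR's quasi-likelihood test). From F29 to T31 the gene rose by 3.77 (adjusted p = 0.0189), and the difference from T31 to T35 was -1.80 (adjusted p = 0.0514). In run 3, T31 animals 4, 11 and 18 had 15.8, 15.4 and 2.16 CPM, T35 animals 6 and 11 had 5.96 and 5.71 CPM and F28 animals 2 and 7 had 1.75 and 0.438 CPM. The T31 animals of that run therefore lay on both sides of T35, and with the run 3 libraries alone the change between the phases did not pass the test (3.04, adjusted p = 0.395). In run 2 F28 animals 2 and 9 had 2.25 and 3.13 CPM and T35 animals 6 and 11 had 6.65 and 7.39 CPM, and the change was 1.37 (adjusted p = 0.0708). A high level was not limited to lungs after birth, since F20 animal 35 had 45.6 CPM and F23 animal 23 had 6.62 CPM, while the other 6 fetuses of those days had 0 to 1.10 CPM.

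ENSOCUG00000003344 had a rise that was still present 4 days after birth. It was at 4.11, 7.99 and 2.24 CPM at F28 and at 3.46, 11.2 and 3.46 CPM at F29. At T31 it was at 11.4, 82.0 and 27.5 CPM and at T35 at 48.0, 41.5 and 88.9 CPM, so the highest fetus and the lowest newborn were close together. The phase means were 5.41 ± 3.45 and 49.9 ± 30.4 CPM (SD, n = 6 each). The change between phases was 3.20 ± 0.541 (SE, adjusted p = 0.00706 by edgeR), and neither the step from F29 to T31 (2.74, adjusted p = 0.243) nor that from T31 to T35 (0.56, adjusted p = 0.765) passed the test alone. In run 3, which used other T31 animals, the gene was at 21.4, 33.9 and 19.2 CPM in T31 animals 4, 11 and 18, against 2.62 and 3.36 CPM in F28 animals 2 and 7, and the change between the phases in that run alone was 2.99 (adjusted p = 0.0812). With the run 2 libraries alone, which repeat F28 and T35 animals of run 1, the change was 3.12 (adjusted p = 0.0166 by edgeR). The gene stayed at 10.5 to 44.7 CPM in the 4 T37 animals, taken 6 days after term birth. In the 3 T42 animals, taken 11 days after term birth, it was at 13.9 to 28.2 CPM. Earlier fetuses had lower levels, with 0 CPM in every F20 and 0.133 to 0.689 CPM in the F23 fetuses of run 3. In run 1 the gene was at 0.633 to 0.807 CPM at F25 and at 0.310 to 3.54 CPM at F27. Every F28 lung of run 1 thus already lay above every F25 lung.

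ENSOCUG00000031285 had the smallest adjusted p of the 4 genes. Its CPM were 9.32, 9.91 and 11.9 at F28 and 14.6, 13.2 and 8.43 at F29, and it fell to 0.897, 2.42 and 2.94 at T31 and 2.92, 1.62 and 1.33 at T35. The fetal values lay within 8.43 to 14.6 CPM and the postnatal ones within 0.897 to 2.94 CPM, a lack of overlap that the choice of the gene required. The phase means were 11.2 ± 2.42 and 2.02 ± 0.863 CPM (SD, n = 6 each), with a log2 fold change of -2.46 ± 0.271 (SE, adjusted p = 0.000586 by edgeR). The step from F29 to T31 was -2.53 (adjusted p = 0.0549) and that from T31 to T35 -0.08 (adjusted p = 0.953). In run 3 the gene was at 2.14, 3.45 and 3.46 CPM in T31 animals 4, 11 and 18 and at 4.51 and 11.0 CPM in F28 animals 2 and 7, and the change in that run alone was -1.63 (adjusted p = 0.419). With the run 2 libraries alone, which repeat F28 and T35 animals of run 1, the change was -1.91 (adjusted p = 0.0424 by edgeR). At T37 the gene had 0.693 to 2.86 CPM and at T42 0.140 to 0.913 CPM, so it stayed low for as long as lungs were taken.

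ENSOCUG00000023957 had the largest fall among called genes of at least 5 CPM without overlap, and its level differed between runs in the same animals. In run 1 it stood at 16.0, 17.3 and 15.7 CPM at F28, at 18.4, 3.88 and 4.67 CPM at F29, at 2.99, 3.02 and 2.32 CPM at T31 and at 0.139, 1.32 and 2.21 CPM at T35. The phase means were 12.6 ± 6.56 and 2.00 ± 1.10 CPM (SD, n = 6 each), and the log2 fold change was -2.66 ± 0.514 (SE, adjusted p = 0.0091 by edgeR). The same F28 animal 2 gave 0.563 CPM in run 2 and 1.31 CPM in run 3, and F28 animal 9 gave 0.681 CPM in run 2. F28 and T35 libraries of the other runs all lay between 0 and 1.31 CPM. F25 and F27 fetuses of run 1 had 6.13 to 11.5 CPM. With the run 3 libraries alone the change was -0.81 (adjusted p = 0.845). In that run T31 animals 4, 11 and 18 had 0.712, 0.150 and 1.87 CPM, and the T37 animals had 0.139 to 2.01 CPM. The T42 animals had 1.54 to 3.78 CPM, so each of them lay above F28 animals 2 and 7 of the same run, at 1.31 and 0.877 CPM.

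**Figure D1:**
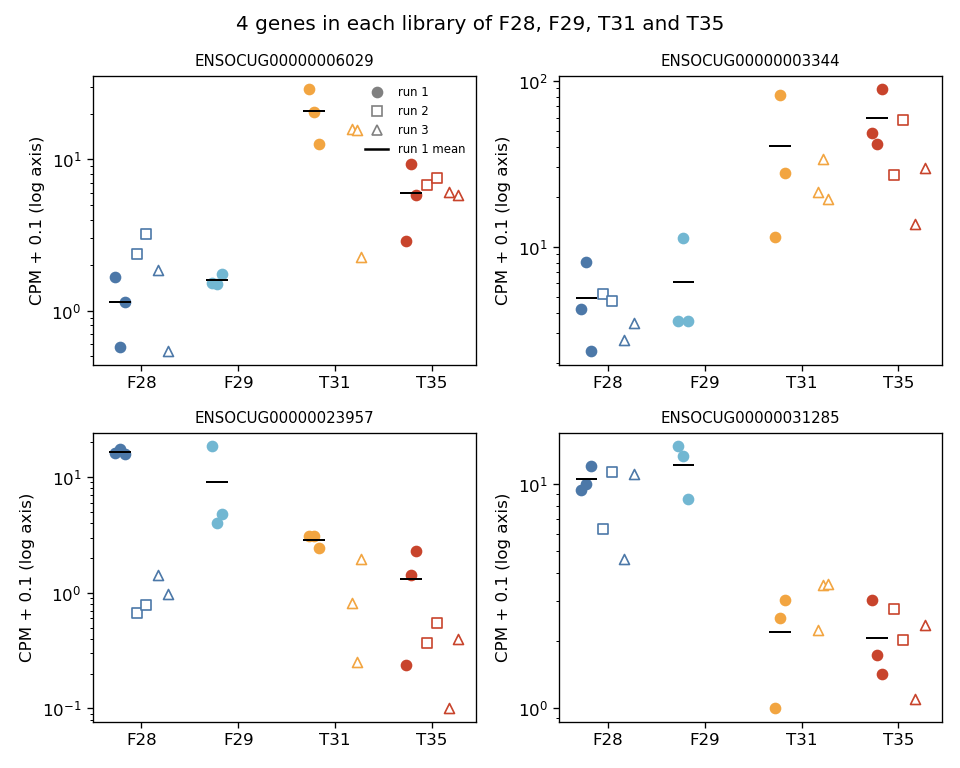
CPM plus 0.1 on a log axis for the 4 genes, by time point. Filled circles are the 12 run 1 lungs and black bars their means, open squares and triangles are libraries of runs 2 and 3. In run 1 ENSOCUG00000006029 is highest at T31, ENSOCUG00000031285 lies below F28 at T31 and T35 in every run, and ENSOCUG00000023957 is at 15.7 to 17.3 CPM at F28 in run 1 and at most 1.31 CPM at F28 in the other runs.

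A principal component analysis of log2 CPM of all genes tested ordered the lungs along the first component, with 23.7% of the variance. F28 scored -36.9 to -30.9, F29 -29.3 to -14.1, T31 -3.74 to 21.5 and T35 37.7 to 46.97, so the time points followed each other without overlap. The second component (14.5%) set T31 animals 1 (-63.5) and 10 (-35.7) apart from the other 10 lungs, which lay between -1.61 and 22.8. T31 animal 15 (1.65) was not among those set apart. With the 500 most variable genes the first component held 26.7%, and T31 (-9.32 to 5.09) then overlapped with both fetal time points.

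**Figure D2:**
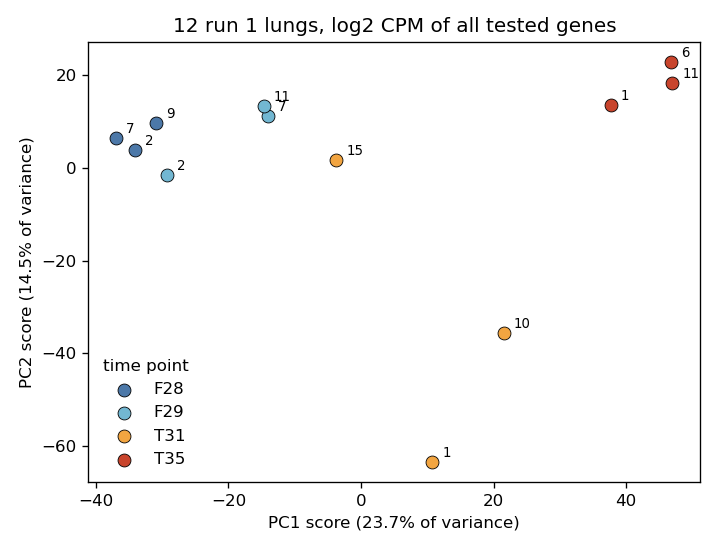
Scores of the 12 run 1 lungs on the first pair of principal components of log2 CPM, coloured by time point and labelled with the animal number. F28 is at the left, T35 at the right, and T31 animals 1 and 10 lie at -63.5 and -35.7 on the vertical axis.

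The T31 pups were the least alike. The root mean square difference of log2 CPM per gene between animals of a time point averaged 0.669 at F28, 0.657 at F29, 0.761 at T31 and 0.685 at T35, over 3 pairs each. Between time points it was 0.681 for F28 and F29, 0.767 for F29 and T31, 0.815 for T31 and T35 and 0.877 for F28 and T35, over 9 pairs each. The distance between F28 and F29 lungs was thus close to that among lungs of the same day.

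The number of genes called changed with each time point left out. Without F28, with 3 fetal lungs against 6, 1 gene was called (1967 at an unadjusted p under 0.05), and without F29 136 genes were called. Without T35, 147 genes were called, and without T31 the number was 769 although the comparison then held 9 lungs. Each of these fits has 3 animals fewer than the full one. Without T31 animals 1 and 10, a setting added after seeing the data, 454 genes were called.

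**Figure D3:**
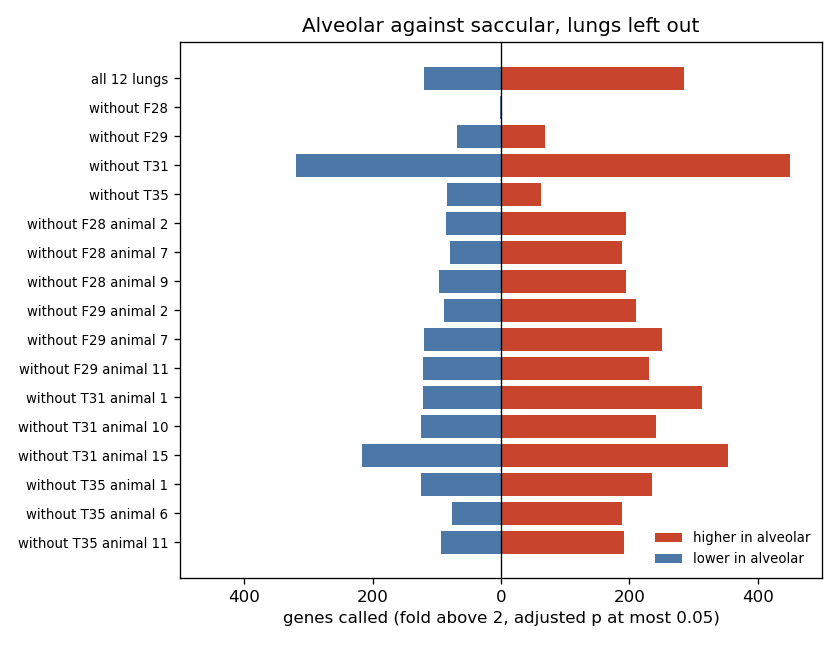
Genes called higher (right, red) or lower (left, blue) in the alveolar group with all 12 lungs, without each time point and without each animal in turn. The bars run from 1 gene without F28 to 769 genes without T31, with 405 for all lungs.

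Within the saccular phase no gene was called between F29 and F28 by edgeR (0 of 14062, 0%, with 582 genes at an unadjusted p under 0.05), none by limma-voom and 10 by DESeq2. This step uses the same saccular animals as the phase comparison, so its values for the called genes are only set beside those of the phases. The median log2 step from F28 to F29 was 0.23 for the 285 higher genes (quartiles -0.16 and 0.64) and -0.18 for the 120 lower genes (quartiles -0.41 and 0.06), beside medians of 1.57 and -1.39 between the phases.

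Across birth, from F29 to T31, 2 genes were called (0.0142%), both higher at T31, and ENSOCUG00000006029 was 1 of them. An unadjusted p under 0.05 was found for 1870 genes. Without T31 animal 15, 348 genes were called, 208 higher and 140 lower, whereas the count was 0 without T31 animal 1 or 10 and without F29 animal 2 or 7. The number was 0 by limma-voom and 117 by DESeq2. For the genes called between the phases, chosen with these animals, the median step from F29 to T31 was 1.22 among the higher and -1.13 among the lower genes.

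From T31 to T35, 80 genes were called (0.569%), 50 higher (0.356%) and 30 lower (0.213%) at T35. The 50 genes that rose had a median of -0.46 on the log2 scale at T31 and 1.02 at T35, both relative to the saccular mean, and 36 of them were below that mean at T31. The 30 genes that fell were near the saccular mean at T31 (median -0.0062) and at -1.38 at T35. The T31 and T35 values chose these genes and are given as a description. The count was 17 without T35 animal 6, 23 without T31 animal 1, 231 without T31 animal 15 and 169 without T35 animal 11, so it moved with single pups in both directions.

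For the genes called between the phases, the median step from T31 to T35 was 0.53 among the higher genes (quartiles -0.04 and 0.89) and -0.36 among the lower genes (quartiles -0.79 and -0.0069). Relative to the saccular mean, the higher genes had medians of -0.10 at F28, 0.10 at F29, 1.12 at T31 and 1.59 at T35, and the lower genes 0.09, -0.09, -1.12 and -1.42. The T31 and T35 lungs of run 1 both took part in the choice of these genes, so the order of these medians is a description. The time courses of the higher genes fell into groups. In 71 (24.9%) the T31 mean was at least as far from the saccular mean as the T35 mean, in 147 (51.6%) T31 had passed 50% of the T35 difference, and in 67 (23.5%) it had not. The last group had medians of 0.70 at T31 and 1.93 at T35. Among the lower genes 32 (26.7%) were at least as far at T31 as at T35, 76 (63.3%) had passed 50% and 12 (10%) had not.

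Libraries of the same animals in other runs gave smaller differences. T35 animals 6 and 11 and F28 animals 2 and 9 were sequenced in runs 1 and 2. With scaling by library size, the median log2 difference between these T35 and F28 animals over the 285 higher genes was 1.79 in run 1 and 1.46 in run 2. Over the 120 lower genes it was -1.89 in run 1 and -1.33 in run 2, and over all genes tested -0.16 and -0.13. The genes were chosen with the run 1 values, and the RNA is that of the same animals, so the run 2 values are a repeat measurement.

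The lower genes stood higher in run 1 than in the other runs in the same animals. In F28 animal 9 the 120 genes were higher in run 1 than in run 2 by a median of 1.45 on the log2 scale, and 36.7% of them by more than 4-fold, against 9.05% of all genes tested. In F28 animal 2 the share beyond 4-fold was 30.0% against run 2 and 34.2% against run 3, and in F28 animal 7 it was 39.2% against run 3. Over all genes tested these 3 shares were 8.25%, 11.9% and 11.6%. In the T35 animals the share of the lower genes was 16.7% to 21.7%, against 5.85% to 8.0% of all genes tested. The 285 higher genes were less often more than 4-fold higher in run 1, with 2.11% to 4.21% over the same libraries. Their median log2 difference, run 1 minus the other run, was -0.37 to -0.23 in F28 animals and -0.04 to -0.0026 in T35 animals. Over all genes tested that median was 0.16 to 0.26 in F28 animals and 0.14 to 0.16 in T35 animals. The lower and the higher genes were chosen with these run 1 libraries, so part of such differences is built into the choice. The lower genes also had lower levels than all genes tested (medians 3.24 and 14.3 CPM). In run 2 100 of the lower and 281 of the higher genes reached the filter. The part of this run difference in the falls was not tested, and all 12 lungs compared here were read in the same run.

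The levels of the called genes were then followed through all libraries, relative to F28 of the same run. The 3 T31 animals of run 3, which took no part in the choice of the genes, had medians of 0.96, 0.99 and 0.39 over the higher genes and -0.99, -0.61 and -0.45 over the lower genes. Their reference F28 animals are also in the phase comparison. The run 1 T31 animals had 1.10, 1.58 and 0.94 over the higher genes. At T37 the higher genes stood at 1.05 to 1.30 and at T42 at 1.33 to 1.44, so every T37 and T42 lung remained above F28. The lower genes were at -0.48 to -0.31 at T37 and at -0.54 to -0.50 at T42, nearer to F28 than the T35 libraries of that run, at -1.06 and -1.02.

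**Figure D4:**
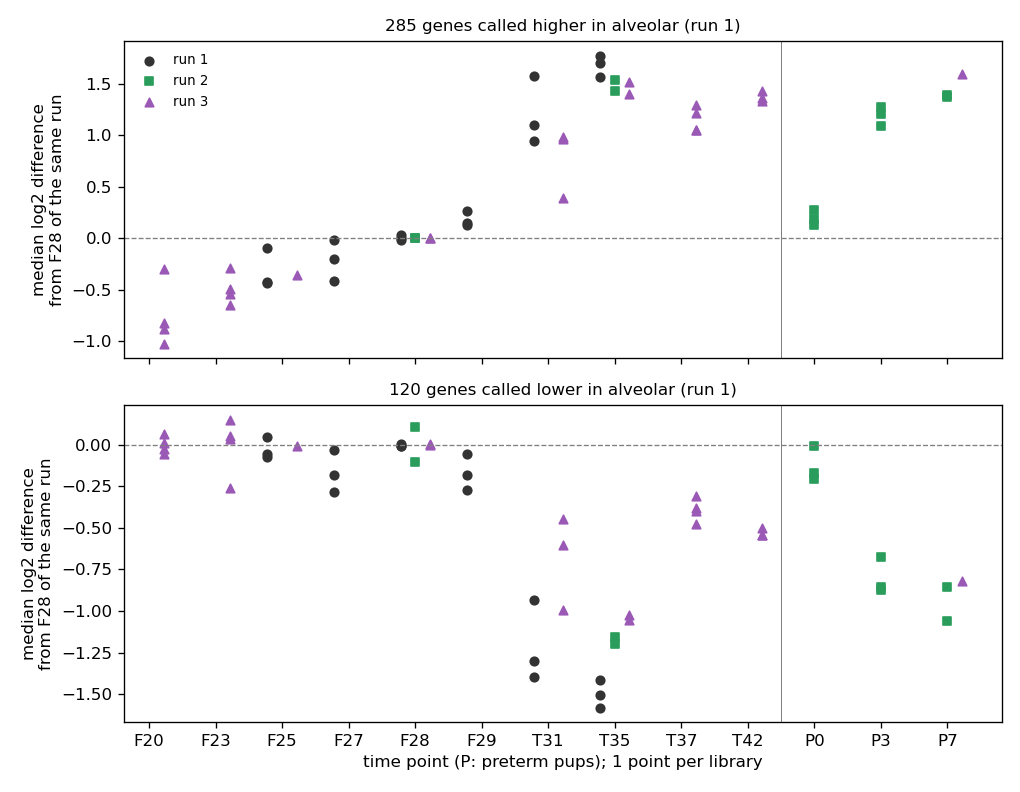
Median log2 difference from the F28 mean of the same run over the genes called higher (top) or lower (bottom), with 1 point per library and P0, P3 and P7 the preterm pups. The higher genes stay above F28 from T31 to T42, while the lower genes at T37 and T42 lie at -0.54 to -0.31, between F28 and T35.

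Comparisons between groups that share no animal with the 12 lungs were added after seeing the data. Each fit held all libraries of its run, so the 12 lungs or repeat libraries of some of them entered the estimate of the spread. Among these 6 comparisons, the medians of both sets were farthest from 0 in preterm pups, delivered by C-section on day 28 and kept without their mothers in incubators at room air on a milk replacer, from 1 h (P0) to 3 days (P3) after delivery. In run 2, with 3 pups each, 256 of 281 measured higher genes (91.1%) were higher at P3 than at P0, against 49.4% of all genes tested, with a median of 1.07 against -0.0032 on the log2 scale. Of these 281 genes 100 (35.6%) were called higher at P3 and 0 lower, against 1.90% and 0.674% of the genes tested in that fit. Among the 100 lower genes measured, 14 (14%) were higher at P3, the median was -0.70, and 10 (10%) were called lower. In that fit 2.57% of all genes were called.

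Each P3 pup lay beyond each P0 pup in both sets. Relative to F28 of run 2, the higher genes had medians of 0.12 to 0.27 in the P0 pups and 1.09 to 1.28 in the P3 pups, and the lower genes -0.21 to -0.0059 and -0.88 to -0.67. In these medians, over genes chosen with the same F28 animals, P0 pups thus lay nearer to F28 than P3 pups did. The study itself reported genes that differed between P0 and F28. ENSOCUG00000006029 rose from 0.710, 3.09 and 2.95 CPM at P0 to 17.5, 52.3 and 27.7 CPM at P3 (log2 fold change 3.84, adjusted p = 0.00159 by edgeR). ENSOCUG00000003344 rose from 5.54, 8.42 and 5.34 CPM to 26.1, 32.95 and 64.0 CPM over the same days (2.67, adjusted p = 0.0066), whereas ENSOCUG00000031285 (-0.56, adjusted p = 0.541) and ENSOCUG00000023957 (-0.84, adjusted p = 0.588) did not pass the test. From P3 to P7, with 2 pups at P7, 65.8% of the higher genes and 34.0% of the lower genes were higher at P7, with medians of 0.27 and -0.23. Of the 281 higher genes 4 were called higher and 0 lower, against 0.0580% and 0.0145% of all genes in that fit (0.0725% in either direction).

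In fetal and late steps the medians of these genes were smaller. From F20 to F23, 60.2% of the measured higher genes were higher at the later day (median 0.22), and from F25 to F27 53.0% (median 0.09). The lower genes had 53.5% and 45.0% (medians 0.06 and -0.08). From F20 to F23, 7 of 284 higher genes were called higher and 2 lower, against 1.59% and 0.196% of all genes in that fit (1.78% in either direction). From F25 to F27 0 of 285 were called, and 0.00685% of all genes. From T31 to T37 in run 3, 64.8% of the higher genes were higher at T37 (median 0.27), and 35 of 284 (12.3%) were called higher and 5 (1.76%) lower, against 3.81% and 1.73% of all genes in that fit (5.53% in either direction). Of the 114 lower genes measured, 55.3% were higher at T37 (median 0.13), with 4 called higher and 8 lower. From T37 to T42, 65.1% of the higher and 47.4% of the lower genes were higher at T42, and 0 of them were called, against 0.0337% of all genes.

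**Figure D5:**
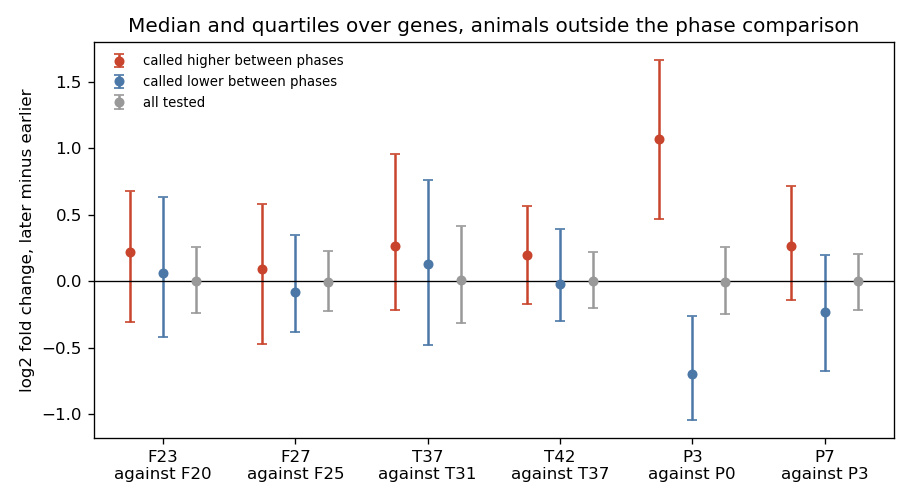
Log2 fold change from the earlier to the later group in 6 comparisons whose animals are not among the 12 lungs, as median (point) and quartiles (bars) over the genes called higher (red), lower (blue) and all genes tested (grey). The widest separation is in P3 against P0, with medians of 1.07, -0.70 and -0.0032.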

How the data were processed

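The authors trimmed reads with BBduk, aligned them to OryCun2.0 with STAR, assigned them to Ensembl genes with HTSeq-count, and extended this with their own code to 3′ UTRs missing from the annotation. Tool versions are not given in the sources used here. The deposited table holds raw counts of 29587 genes in 54 libraries of 45 animals from 3 runs. 0 columns were unmapped and 0 rows named no gene.

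The phase was the only factor in edgeR's quasi-likelihood test (edgeR 4.0.16, R 4.3.3; TMM, Benjamini-Hochberg over all genes tested). Steps between days used the same libraries with the time point as the factor. The study used limma-voom, an alternative here (limma 3.58.1), as was DESeq2 1.42.0. An SE is the log2 fold change divided by the square root of F. Medians over genes by library used log2 CPM with a prior count of 2. Comparisons in other animals were fitted per run, with all libraries of the run. Exact permutation tests used scipy 1.17.1. In counts simulated for the phase comparison (13730 genes), 94%, 88.1% and 97% of planted log2 changes of 1.5, 2 and 3 were called, with 4 false calls. Simulated for T35 against T31 (13789 genes), the shares were 71.6%, 77.6% and 95.5%, with 10 false calls. In the lungs, of 241 tested genes with an absolute log2 fold change of 1.5 to 2, 69 were called higher and 25 lower. Beyond 2 it was 83 and 19 of 162 genes. The simulated shares therefore do not give the share of changes found in the lungs.

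The comparison and lists were chosen with earlier results of these data known. Gene lists fixed by symbol and the planned rule for named genes could not be applied without symbols. Instead, the 2 genes with the largest rise and the 2 with the largest fall were named, among those called, of at least 5 CPM and without overlap.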

Additional observations from a re-analysis of the deposited data

Results flagged for a closer look

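The lowest alveolar value of ENSOCUG00000023957 stood apart from the other 5 on the log2 scale, at T35 animal 1, where the gap to the next pup was 0.646 of the range of the group. It rests on a count of 1. Of 24 groups of values examined in this way it was the only such case, and about 1 in 20 is found by chance. Between the alveolar time points themselves, 80 genes were called in T35 against T31, and of the 50 higher at T35, 36 lay below the saccular mean at T31. These 50 genes were chosen for lying lower at T31 than at T35, so part of this is built into the choice. Over all genes tested the median at T31 was -0.005 on the log2 scale, relative to the saccular mean.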

How the results depend on the processing

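Between the phases, 405 genes became 204 with at least 10 counts in every library, 1329 by the adjusted p alone, 11 by glmTreat against a fold of 1.5 and 3 with the run 3 libraries alone (1121 at an unadjusted p under 0.05). Without F28, F29, T31 or T35 the count was 1, 136, 769 or 147, and it ranged from 265 to 570 when single animals were left out. In 21 settings, limma-voom (355), DESeq2 (495) and the run 2 libraries alone (389) among them, the count stayed within 1.5 times of 405. For F29 against F28, 0 calls became 10 with DESeq2, 2 without a filter, 4 with only both time points and 0 to 1 without single animals. For T31 against F29, 2 calls became 0 with limma-voom, 117 with DESeq2, 10 without a filter, 0 with at least 10 counts in every library, 1 with only both time points and 0 to 348 without single animals. For T35 against T31, 80 calls became 46 with limma-voom, 304 with DESeq2, 135 by the adjusted p alone, 25 with only both time points and 17 to 231 without single animals. The 4 genes given in full kept their direction in the 29 to 31 settings in which each was tested, missed the threshold in 2 to 5 of them, and in each of the 12 fits without an animal they were called. The cause of these shifts was not tested, except that fewer lungs or genes enter some fits by construction.

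No paired analysis of the phases was possible. According to the study's methods, the dams of the fetuses were euthanized at C-section and all their pups taken. F28 and F29 fetuses therefore could not share a dam, nor could a fetus and a term pup. The methods name different dams within a time point and do not say what equal numbers mark. The phases share only a single animal number. F29 and F28 share numbers 2 and 7, and with these as a replicate block (4 libraries) 4 genes were called. That block does not stand for a litter. The deviations of same-numbered F28 and F29 animals correlated at 0.042 and 0.008, beside -0.021 and 0.035 with numbers 2 and 7 crossed. With so few animals, these correlations cannot show whether the numbers pair the samples. T31 and T35 share number 1, for which no correlation was examined.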
